A study of Mus musculus with 30 samples.

Results

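The colon of 2 triple knockout genotypes was compared by 3′ tag sequencing, which counts transcripts from reads near their 3′ end. Mice of both genotypes lacked Xbp1 and Casp8 in intestinal epithelial cells (IEC), the cells that line the gut. The genotype XBP1IEC-KO;Casp8IEC-KO;TNFR1IEC-KO also lacked the TNF receptor TNFR1, encoded by Tnfrsf1a, in the same cells and is called here the TNFR1 triple knockout. The genotype XBP1IEC-KO;Casp8IEC-KO;MLKLKO carried in its place a deletion of Mlkl, for which the label names no cell type, and is called the MLKL triple knockout. Each genotype had 5 mice with 1 library each, so that 10 of the 30 libraries of the series formed the contrast. All 15458 genes with enough reads were tested, which were 27.9% of the 55487 genes listed. Levels in WT, in the double knockout XBP1IEC-KO;Casp8IEC-KO and, for some genes, in the single knockouts XBP1IEC-KO (called the Xbp1 knockout) and Casp8IEC-KO (the Casp8 knockout), with 5 mice each, are given beside the results with no test. The labels give tissue and genotype, and no strain, age, treatment or promoter of the deleting enzyme. RNA came from whole colon with its muscle, immune and nerve cells, so that fewer cells of a type and less RNA per cell cannot be told apart.

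TNF that binds TNFR1 switches on NF-kB target genes, and can also start cell death. Caspase-8 starts apoptosis from that receptor and at the same time holds back necroptosis, a form of death in which the kinase RIPK3 activates MLKL and MLKL breaks the plasma membrane. Epithelium without caspase-8 is known for necroptosis of its cells in the gut, and XBP1, a transcription factor of the unfolded protein response, is known for its role in secretory cells such as goblet cells. The contrast therefore asks in which genes the colon differs when this route is removed at its receptor in the epithelium or at its last step. Values are CPM, edgeR's read count normalised to the size of each library, in which 1 read was worth a median of 0.232. Differences are log2 fold changes of the TNFR1 triple knockout over the MLKL triple knockout, given with an approximate standard error (SE) derived from the test.

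Totals of the 10 libraries ran from 3835605.6 to 5136443.7 estimated reads, and mitochondrially encoded genes took 13.3 to 22.8% of them. Xist and Y-linked genes marked 4 libraries of the TNFR1 triple knockout as female and replicate 3 as male, and all 5 of the MLKL triple knockout as female, while WT and the double knockout held 4 male libraries of 5 each. TNFR1 triple knockout replicate 1 and the library labelled MLKL triple knockout replicate 5 stood apart from the others on the first principal component of the 10 libraries (27.9% of the variance), at 32.3 and 21 against -16.7 to 8.50. On the second component (18.1%) TNFR1 triple knockout replicates 2 to 5 lay from -15.2 to -9.49, below the 5 libraries of the MLKL triple knockout at -5.31 to 21.8, and TNFR1 triple knockout replicate 1 lay among the latter at 9.57. All 26 absorptive colonocyte genes were measured, at a summed 7100 to 10822 CPM in the 10 libraries, against 5 of 14 genes of the small intestine and Paneth cells at 35.8 to 80.3 CPM.

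The targeted genes were read first. Tnfrsf1a (GRCm38 chromosome 6, 125349362 to 125362484) stood at 75.4, 61.5, 53.3, 52.4 and 57.7 CPM in TNFR1 triple knockout replicates 1 to 5 and at 53.7, 67.1, 87.9, 83.3 and 65.5 CPM in MLKL triple knockout replicates 1 to 5. The groups overlapped, and the difference of -0.25 ± 0.131 did not pass (edgeR, adjusted p = 0.605). Mlkl (chromosome 8, 111311797 to 111338177) stood at 30.2, 6.80, 11.1, 8.6 and 11.3 CPM in TNFR1 triple knockout mice and at 1.3, 2.76, 4.38, 3.59 and 10.7 CPM in the libraries labelled MLKL triple knockout. Mlkl lay below every TNFR1 triple knockout library in the first 4 of these. The fifth lay within their range, so its Mlkl level does not bear out its label. The difference of 1.57 ± 0.461 did not pass (edgeR, adjusted p = 0.183). The fifth library is called below the library labelled MLKL triple knockout replicate 5. This library and TNFR1 triple knockout replicate 1 also had the highest type I interferon response means, 6.79 and 5.71 log2 CPM. Whether their Mlkl levels follow that response was not tested. Casp8 had means of 22 and 19.1 CPM (0.20 ± 0.246, adjusted p = 0.856), and the difference in Xbp1, with means of 66.1 and 74.4 CPM, did not pass either (-0.17 ± 0.203, adjusted p = 0.850). Which part of each gene was deleted is not given in the sources used here, and 3′ tags outside that part check nothing.

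Few genes passed between the genotypes. Of the 15458 genes tested, 40 passed (0.259%; edgeR quasi-likelihood test with Benjamini-Hochberg adjustment), 14 of them higher (0.0906%) and 26 lower (0.168%) in the TNFR1 triple knockout. Lower were the goblet cell genes Clca1 and Tff3, the pentraxin Mptx1, the stem cell gene Lgr5 and genes beside the Tnfrsf1a locus. Higher were the keratin Krt36, the claudin Cldn4, the metallothionein Mt2, the NRF2 targets Nqo1 and Pir, and 3 genes that were near 0 in the MLKL triple knockout. The 5 and 5 libraries did not overlap in 251 genes (1.62%), among them 33 of the 40. An unadjusted p under 0.05 was reached by 1321 genes (8.55%), the median difference over all genes was -0.00, and 49.0% of the differences were positive. When the library labelled MLKL triple knockout replicate 5 was left out, 54 genes passed, 36 of them among the 40, and without both libraries that stood apart 38 passed, 26 of them among the 40.

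**Figure D1:**
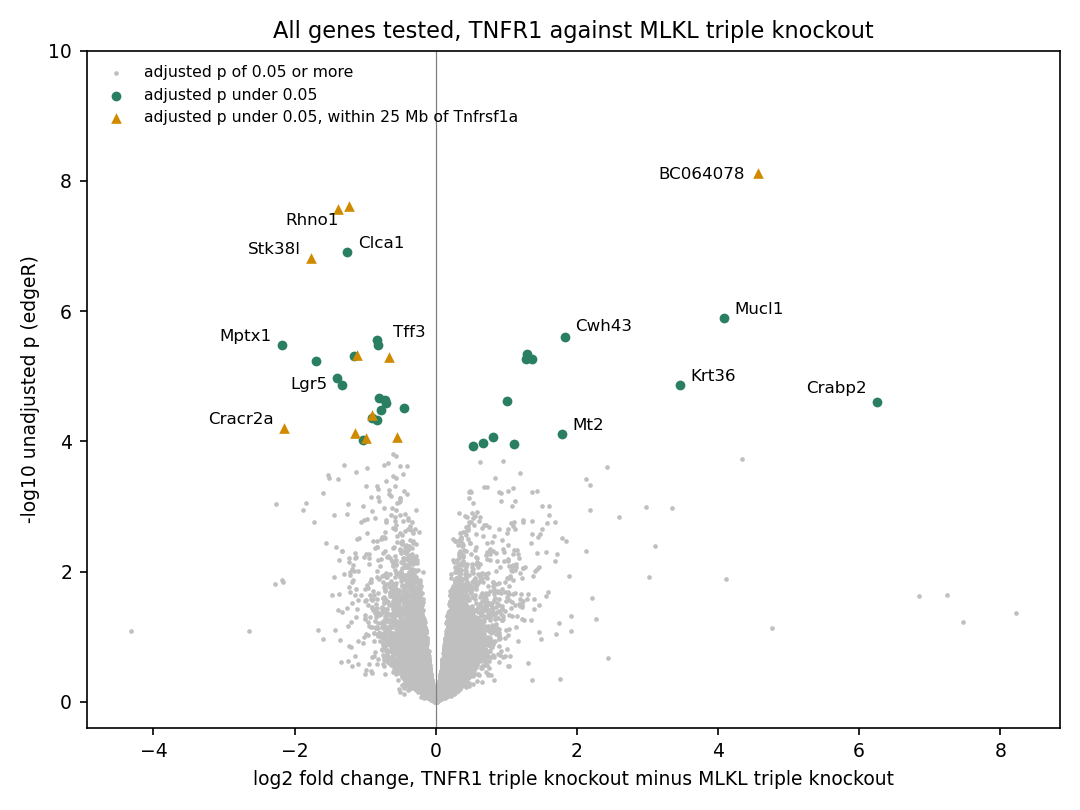
Log2 fold change of each of the 15458 genes (horizontal axis, TNFR1 triple knockout minus MLKL triple knockout) against -log10 of its unadjusted p (vertical axis). Green points and orange triangles are the 40 genes that passed, 14 to the right and 26 to the left of 0, and the triangles lie within 25 Mb of Tnfrsf1a.

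Goblet cells fill the colon with mucus, a gel of the mucin MUC2 and of proteins secreted with it. Clca1 (chromosome 3, 145003817 to 145032776), which encodes a secreted enzyme that processes this gel, stood at 965, 679, 684, 416 and 739 CPM in TNFR1 triple knockout replicates 1 to 5. The libraries labelled MLKL triple knockout held 1731, 1806, 1655, 1392 and 1699 CPM. Every TNFR1 triple knockout library lay below every MLKL triple knockout library, with a difference of -1.25 ± 0.184 (edgeR, adjusted p = 4.72e-04). WT held 1154 ± 106 CPM (SD, n = 5) and the double knockout 587 ± 163, so that the MLKL triple knockout stood above the WT range of 1009 to 1241 and the mean of the TNFR1 triple knockout within the double knockout range of 361 to 796.

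Tff3 (chromosome 17, 31125306 to 31129646), a trefoil peptide that goblet cells secrete for mucosal repair, stood at 787, 631, 579.7, 486 and 583 CPM in TNFR1 triple knockout mice and at 1284, 963, 1044, 1106 and 1004 CPM in libraries labelled MLKL triple knockout. The groups did not overlap (-0.82 ± 0.145, edgeR adjusted p = 0.00516), and WT with 971 ± 199.9 CPM and the double knockout with 915 ± 216 lay nearer the MLKL triple knockout. Of 21 goblet cell genes 19 were measured, 2 passed in edgeR, both lower, and all 19 had a negative difference, with a median of -0.40 against -0.00 over all genes. An unadjusted p under 0.05 was reached by 9 of the 19. DESeq2 called 3 members lower (Clca1, Tff3 and Tpsg1) and voom 5 (these and Muc2 and Zg16). The mean of the list on the log2 CPM scale was 7.87, 7.41, 7.35, 7.08 and 7.45 in the TNFR1 triple knockout and 8.05, 7.91, 7.99, 7.86 and 7.80 in the MLKL triple knockout. TNFR1 triple knockout replicate 1 was the highest of its group and reached into the range of the other, while its other 4 libraries lay below every MLKL triple knockout library.

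Other mucus genes of the list did not pass in edgeR's fit of all libraries. Muc2, the mucin itself, had 430.0 ± 189 CPM in TNFR1 triple knockout mice against 649 ± 72.2 (-0.59 ± 0.192, adjusted p = 0.268), against 1953 ± 299 in WT and 697 ± 186 in the double knockout. Zg16, a lectin of the mucus layer, had 2065 ± 824 and 3374 ± 264 CPM (-0.71 ± 0.207, adjusted p = 0.182), and Fcgbp, a mucus protein bound to MUC2, had 472 ± 128 and 669 ± 135 CPM (-0.50 ± 0.165, adjusted p = 0.280). By voom on all libraries Muc2, Zg16 and Tpsg1 passed beside Clca1 and Tff3. In edgeR without the 2 libraries that stood apart, Muc2 (-0.92, adjusted p = 0.0133) and Zg16 (-0.97, adjusted p = 0.0279) passed together with Clca1 and Tff3, and the median of the list was -0.59. The transcription factors of the goblet lineage Atoh1 (-0.39 ± 0.188, adjusted p = 0.569) and Spdef (-0.18 ± 0.204, adjusted p = 0.843) had overlapping groups.

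Reg4 and Gcnt3, outside the goblet list, were lower as well. Reg4 (chromosome 3, 98222156 to 98236748), a secreted lectin of crypt secretory cells, stood at 238, 189.5, 204, 127 and 198 CPM in TNFR1 triple knockout mice and at 310.0, 359, 475, 296 and 267 CPM in libraries labelled MLKL triple knockout (-0.84 ± 0.178, adjusted p = 0.0244). Gcnt3 (chromosome 9, 70031496 to 70038088), a glycosyltransferase that branches mucin sugars, stood at 56.2, 42.9, 53.7, 37.8 and 49.8 CPM against 93.7, 71.3, 83.5, 88.3 and 72.8 CPM (-0.77 ± 0.159, adjusted p = 0.0187). In both genes every TNFR1 triple knockout library lay below every MLKL triple knockout library. Bcas1os2 (chromosome 2, 170356361 to 170380435) is annotated opposite Bcas1, a gene of the goblet list, and had 15.5 ± 2.24 CPM against 34.8 ± 15.9 (-1.16 ± 0.211, adjusted p = 0.00520). The strand setting of the counting is not given in the sources used here, so reads of Bcas1os2 and of Bcas1 (-0.50, adjusted p = 0.280) cannot be told apart. The same holds for Cacna1h, a calcium channel (6.73 ± 1.68 against 12.5 ± 2.05 CPM, -0.90 ± 0.189, adjusted p = 0.0229), which overlaps the goblet gene Tpsg1 on the other strand (-0.83, adjusted p = 0.113).

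Calls of Clca1 and Tff3 held without each of the 10 libraries in turn. That of Reg4 ended without TNFR1 triple knockout replicate 2, 4 or 5 or MLKL triple knockout replicate 2 or 3 (adjusted p up to 0.148), in the fit of only the 10 libraries and among females only. That of Gcnt3 ended without TNFR1 triple knockout replicate 2 or 4 or MLKL triple knockout replicate 1, 3 or 4 (adjusted p up to 0.113). Bcas1os2 kept its call without each library but not in the fit of only the 10 libraries or among females only. Cacna1h lost its call in these 2 settings, and without TNFR1 triple knockout replicate 4 or 5 or MLKL triple knockout replicate 1, 3 or 4 (adjusted p up to 0.127).

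Mptx1 (chromosome 1, 174330518 to 174332873), which encodes a mucosal pentraxin, a secreted pattern-binding protein, had the largest decrease of the 26 lower genes. It stood at 56.2, 239, 331, 137 and 333 CPM in TNFR1 triple knockout replicates 1 to 5 and at 1159, 995, 1315, 762 and 732 CPM in the libraries labelled MLKL triple knockout (-2.18 ± 0.386, edgeR adjusted p = 0.00516). The highest TNFR1 triple knockout library held less than the lowest MLKL triple knockout library, and replicate 1 was the lowest of all. WT with 929 ± 231 CPM lay near the MLKL triple knockout, and the double knockout with 202 ± 78.2 CPM near the TNFR1 triple knockout. Ccl6 (chromosome 11, 83587882 to 83593087), a chemokine, stood at 261, 205, 179, 157 and 242 CPM against 413, 373, 432, 284 and 358 CPM, again with no overlap (-0.83 ± 0.146, adjusted p = 0.00516). Its level was 244 ± 41.9 CPM in WT and 268 ± 44.2 in the double knockout, below the MLKL triple knockout mean of 372. Both calls held without each of the 10 libraries in turn.

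Lgr5 (chromosome 10, 115450311 to 115587780), the receptor that marks stem cells at the crypt base, stood at 5.84, 3.75, 4.66, 4.20 and 6.11 CPM in TNFR1 triple knockout mice. In the libraries labelled MLKL triple knockout it stood at 13, 13.6, 18.5, 8.09 and 8.74 CPM. The groups did not overlap (-1.33 ± 0.258, adjusted p = 0.0105), at a level of few reads, and WT (8.87 ± 3.2 CPM) and the double knockout (6.46 ± 1.84) lay between the means of 4.91 and 12.4. The call ended without TNFR1 triple knockout replicate 4 or MLKL triple knockout replicate 3 (adjusted p up to 0.0718), in the fit of only the 10 libraries and among females only. Of 17 measured stem cell and WNT target genes Lgr5 alone passed, 7 differences were positive, and the median was -0.15. Smoc2, a matrix protein of crypt base cells, had 27.4 ± 2.77 against 42.4 ± 8.47 CPM with no overlap (-0.63 ± 0.179, adjusted p = 0.172), and Lrig1, a stem cell regulator of EGF receptors, had 13.8 ± 2.51 against 20.7 ± 4.60 CPM (-0.58 ± 0.167, adjusted p = 0.182). None of the 25 proliferation genes passed in edgeR, DESeq2 or voom and 0 had an unadjusted p under 0.05, with a median of -0.05.

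**Figure D2:**
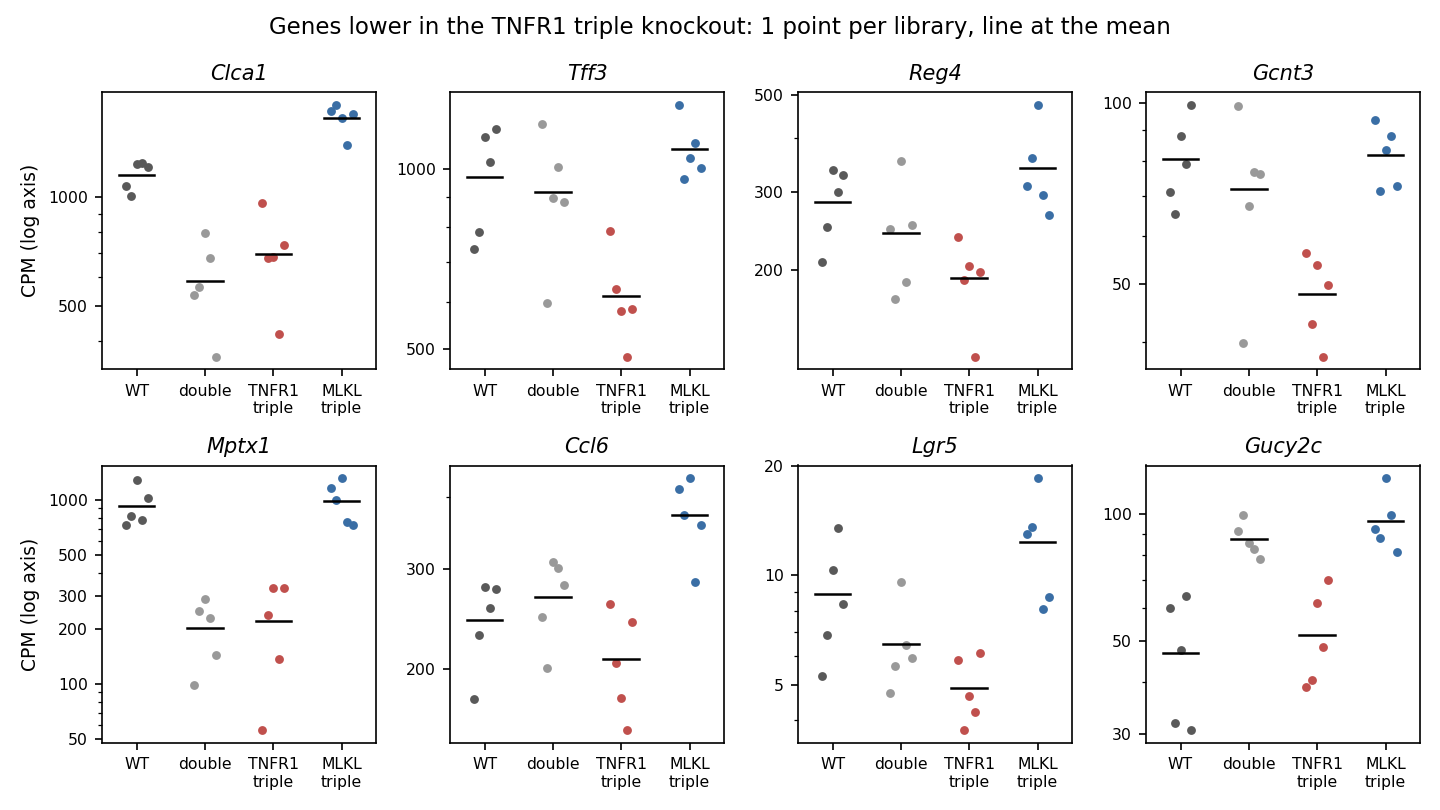
CPM of 8 genes lower in the TNFR1 triple knockout, on log axes, with 1 point per library and a line at the group mean (5 libraries per group). In each panel the TNFR1 triple knockout libraries (red) lie below all MLKL triple knockout libraries (blue), while the WT and double knockout levels (grey) differ from gene to gene.

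Among the genes higher in the TNFR1 triple knockout, Krt36 (chromosome 11, 100102007 to 100105626), a keratin, stood at 64.2, 8.21, 24, 39.8 and 25.6 CPM in replicates 1 to 5. It stood at 0.779, 5.12, 3.41, 2.92 and 1.94 CPM in the libraries labelled MLKL triple knockout (3.46 ± 0.671, edgeR adjusted p = 0.0105). The lowest TNFR1 triple knockout library held more than the highest MLKL triple knockout library. WT at 1.84 ± 1.22 CPM lay near the MLKL triple knockout, and the double knockout at 19.1 ± 10.1 CPM nearer the TNFR1 triple knockout. Cldn4 (chromosome 5, 134945119 to 134946934), a claudin of tight junctions, stood at 102, 72.5, 63.5, 52.8 and 76.9 CPM against 33.2, 51.8, 44.3, 26.1 and 26.2 CPM (1.01 ± 0.204, adjusted p = 0.0158). The groups touched but did not overlap, at 52.8 and 51.8 CPM, and WT (31.1 ± 5.88) and the double knockout (71.2 ± 17) stood near the MLKL and the TNFR1 triple knockout. Cldn4 alone passed of 15 claudin and tight junction genes, whose median was 0.03.

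Cwh43 (chromosome 5, 73406075 to 73453435), which remodels the lipid of membrane-anchored proteins, stood at 28.5, 9.62, 18.2, 28.4 and 14 CPM in TNFR1 triple knockout mice and at 3.63, 7.87, 3.65, 7.86 and 4.37 CPM in libraries labelled MLKL triple knockout (1.83 ± 0.318, adjusted p = 0.00516). Tiam1 (chromosome 16, 89787111 to 90143769), an activator of the GTPase RAC1, stood at 19.5, 24.4, 22.2, 21 and 18.8 CPM against 8.31, 12, 8.04, 5.62 and 8.74 CPM (1.3 ± 0.235, adjusted p = 0.00520). In Syt8 (chromosome 7, 142434850 to 142440396), a synaptotagmin of vesicle traffic, the values were 10.5, 7.98, 15.5, 14 and 16.3 CPM against 4.67, 6.10, 4.63, 6.06 and 3.40 CPM (1.36 ± 0.248, adjusted p = 0.00520). None of these 3 genes had overlapping groups. In all 3 the double knockout mean (30.6, 18 and 12.3 CPM) lay nearer the TNFR1 triple knockout and the WT mean (4.38, 10.3 and 6.99 CPM) nearer the MLKL triple knockout. S100a11, a calcium-binding protein, had 183 ± 49.1 against 104 ± 23.9 CPM with overlapping groups (0.81 ± 0.179, adjusted p = 0.0385).

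Calls of Cwh43, Tiam1, Syt8 and Krt36 held without each of the 10 libraries in turn, although Cwh43 did not pass among females only and Krt36 did not pass by voom or without both libraries that stood apart. The call of Cldn4 ended without TNFR1 triple knockout replicate 1, without MLKL triple knockout replicate 1 or 4 (adjusted p up to 0.0714), without both libraries that stood apart and in the fit of only the 10 libraries. That of S100a11 held only without TNFR1 triple knockout replicate 2 or 5 or MLKL triple knockout replicate 2, with an adjusted p of up to 0.180 when any other was left out. It also ended by voom, in the fit of only the 10 libraries, among females only and without both libraries that stood apart.

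Mt2, Pir and Nqo1 were higher as well. Mt2 (chromosome 8, 94172664 to 94173568), a metallothionein that binds zinc and copper, stood at 176, 155, 423, 321 and 276 CPM in TNFR1 triple knockout replicates 1 to 5 and at 61.8, 65.7, 70.1, 100.4 and 93.2 CPM in the libraries labelled MLKL triple knockout. All TNFR1 triple knockout libraries lay above all MLKL triple knockout libraries (1.79 ± 0.393, edgeR adjusted p = 0.0357), which were also below the WT mean of 164 ± 52.5 CPM and the double knockout mean of 406 ± 259.6. Its neighbour Mt1, the other main metallothionein of the gut, had 1149 ± 230.4 against 841 ± 91.0 CPM with overlapping groups (0.45 ± 0.205, adjusted p = 0.542). The promoters of the pair, 250 bases before to 50 after the start (RefSeq, GRCm38.p6), are shown because the genes lie side by side and differed unlike in size. Capitals mark the core of the metal response element, TGCACNC or TGCGCNC, bound by the zinc sensor MTF1, as found on either strand.
Mt2, chr8:94172368-94172667, plus strand: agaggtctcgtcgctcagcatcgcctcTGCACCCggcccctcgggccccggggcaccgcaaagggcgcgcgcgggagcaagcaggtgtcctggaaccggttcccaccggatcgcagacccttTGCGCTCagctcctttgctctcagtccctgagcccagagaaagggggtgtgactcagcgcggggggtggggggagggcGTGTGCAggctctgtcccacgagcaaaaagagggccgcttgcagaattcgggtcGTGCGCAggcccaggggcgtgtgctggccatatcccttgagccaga
Mt1, chr8:94178839-94179138, plus strand: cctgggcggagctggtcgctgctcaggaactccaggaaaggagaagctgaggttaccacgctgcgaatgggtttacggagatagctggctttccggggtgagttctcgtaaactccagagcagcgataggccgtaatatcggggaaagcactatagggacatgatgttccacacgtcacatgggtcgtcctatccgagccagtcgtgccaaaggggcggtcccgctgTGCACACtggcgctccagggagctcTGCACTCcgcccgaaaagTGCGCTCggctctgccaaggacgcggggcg
Mt2 held 4 matches, 2 on each strand, and Mt1 held 3, with no match overlapping another. Of 27025 promoters of this length 25.6% held at least 1 match, as did 6 of the 23 genes that passed and have a promoter there (26.1%).

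Pir (chromosome X, 164269371 to 164373011), an iron-binding nuclear protein, stood at 8.51, 8.68, 9.99, 9.0 and 7.01 CPM in TNFR1 triple knockout mice against 2.86, 5.51, 3.65, 3.37 and 2.18 CPM in libraries labelled MLKL triple knockout (1.27 ± 0.233, adjusted p = 0.00520). Nqo1 (chromosome 8, 107388225 to 107403206), a quinone reductase, stood at 19.5, 13.1, 18.4, 19.8 and 20.1 CPM against 7.27, 8.46, 9.50, 10.8 and 6.07 CPM (1.11 ± 0.25, adjusted p = 0.0439). Neither gene had overlapping groups. Nqo1 in WT (8.92 ± 2.56 CPM) lay nearer the MLKL triple knockout and in the double knockout (18.6 ± 6.53) nearer the TNFR1 triple knockout, whereas Pir in both (5.99 ± 1.06 and 5.55 ± 1.74) lay between the triple knockouts. Both genes are textbook targets of NRF2, which binds the antioxidant response element. The promoter of Pir (RefSeq, GRCm38.p6) is shown with the core of that element, TGACNNNGC, in capitals where it was found, here on the minus strand at both places.
Pir, chrX:164269181-164269480, plus strand: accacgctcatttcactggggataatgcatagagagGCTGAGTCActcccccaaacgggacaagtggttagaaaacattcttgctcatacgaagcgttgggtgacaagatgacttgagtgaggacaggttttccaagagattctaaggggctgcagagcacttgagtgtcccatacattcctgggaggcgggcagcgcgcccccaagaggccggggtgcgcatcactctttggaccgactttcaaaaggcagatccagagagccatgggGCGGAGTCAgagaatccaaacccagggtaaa
The core was found in 12.5% of the 27025 promoters and in 3 of the 23 of genes that passed (13%), and was not in this window of Nqo1.

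The call of Pir held without each library, but not in the fit of only the 10 libraries. That of Mt2 held only without TNFR1 triple knockout replicate 1 or 2 or the library labelled MLKL triple knockout replicate 5 (adjusted p up to 0.121 otherwise) and ended among females only. Of the libraries left out in turn, that of Nqo1 held only without TNFR1 triple knockout replicate 2 (up to 0.133). The call of Nqo1 also ended by voom, with the replicate number as a block and without both libraries that stood apart. Mt2 and Nqo1 are the 2 genes that passed among the 322 tested within 20 Mb of Mlkl (0.621%, against 0.259% of all genes). An unadjusted p under 0.05 was reached by 32 of the 322 (9.94%), near the 8.55% of all genes. For Mt2 and Nqo1 the deletion and the chromosome segment around it cannot be told apart. Of 18 measured genes of xenobiotic metabolism Nqo1 alone passed, 8 had an unadjusted p under 0.05, and the median was 0.06. Gsta4, a glutathione transferase, had 40.3 ± 13.3 against 18.8 ± 4.23 CPM with no overlap (1.09 ± 0.282, adjusted p = 0.116). Of 8 measured genes of metallothioneins and zinc handling Mt2 alone passed, with a median of 0.17.

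**Figure D3:**
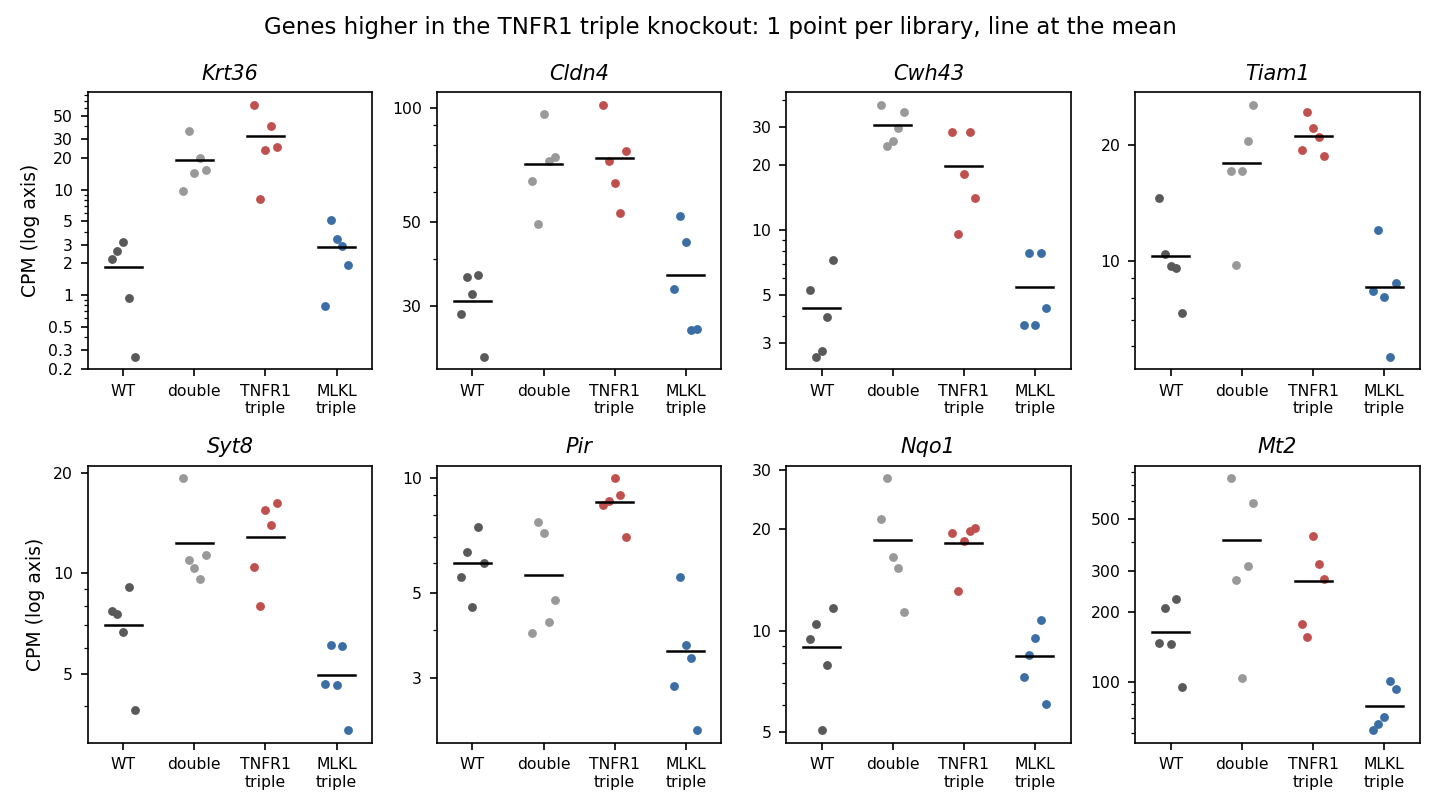
CPM of 8 genes higher in the TNFR1 triple knockout, on log axes, with 1 point per library and a line at the group mean (5 libraries per group). In Krt36, Cldn4, Cwh43 and Nqo1 the WT mean lies nearer the MLKL triple knockout (blue) and the double knockout mean nearer the TNFR1 triple knockout (red).

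The largest differences came from 3 genes with almost no reads in the MLKL triple knockout. Crabp2 (chromosome 3, 87948666 to 87953376), which carries retinoic acid to its nuclear receptor, stood at 11.4, 10.3, 0, 20.2 and 21.7 CPM in TNFR1 triple knockout mice and at 0, 0, 0.243, 0 and 0.485 CPM in libraries labelled MLKL triple knockout. Thus 4 of the 5 TNFR1 triple knockout libraries held the transcript and replicate 3 did not. Summed over the libraries these were 288 against 3 reads, a ratio per library total of 88.9 (95% interval 30.1 to 433, counting error only). Levels in the other groups were 0 to 26 CPM in WT, 5.94 to 11 in the Xbp1 knockout, 0 in all Casp8 knockout libraries and 0 to 0.767 in the double knockout. The difference passed (edgeR adjusted p = 0.0158), but not by voom or without TNFR1 triple knockout replicate 4 or MLKL triple knockout replicate 1, 2, 3 or 4 (adjusted p up to 0.0648).

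Mucl1 (chromosome 15, 103751919 to 103755469), a small mucin-like protein, stood at 0.486, 3.75, 8.43, 4.60 and 4.53 CPM against 0.26, 0, 0, 0.449 and 0.485 CPM (adjusted p = 0.00328). These were 99 against 5 reads, a ratio of 18.3 (7.59 to 57.7), and replicate 1 lay at the level of the MLKL triple knockout while replicates 2 to 5 lay above it. BC064078 (chromosome 6, 128992952 to 129008040) had the smallest p of all genes, with 16.5, 14.8, 23.5, 20.2 and 9.50 CPM against 0.26, 1.38, 0.487, 0.225 and 0.971 CPM (adjusted p = 1.16e-04). These were 380 against 15 reads, a ratio of 23.4 (14 to 42.3). WT held 5.72 to 15.9 CPM of BC064078 and the Xbp1 knockout 0.731 to 26.7, while the Casp8 knockout held 0 to 0.949 and the double knockout 0.199 to 1.24. The TNFR1 triple knockout thus lay nearer WT than the other groups with a Casp8 deletion did.

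BC064078 lies 3.63 Mb from Tnfrsf1a, and it was not the only such gene. Within 20 Mb of Tnfrsf1a 269 genes were tested and 9 passed (3.35%, against 0.259% of all genes), 1 higher and 8 lower in the TNFR1 triple knockout. An unadjusted p under 0.05 was reached by 54 of the 269 (20.1%). With a window of 25 Mb, which adds Stk38l and Fgfr1op2, 11 of 312 passed (3.53%), and of the 12 genes of chromosome 6 that passed only Sval1 lay farther away. Within 20 Mb of Casp8 0 of 228 genes passed in edgeR, DESeq2 or voom, with 17 at an unadjusted p under 0.05, and within 20 Mb of Xbp1 0 of 136 passed in the 3 tools, with 6 at an unadjusted p under 0.05. For the genes beside Tnfrsf1a, the deletion and the chromosome segment that carries it cannot be told apart. Without all genes within 20 Mb of the targeted loci 26 genes passed, 9 higher and 17 lower.

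**Figure D4:**
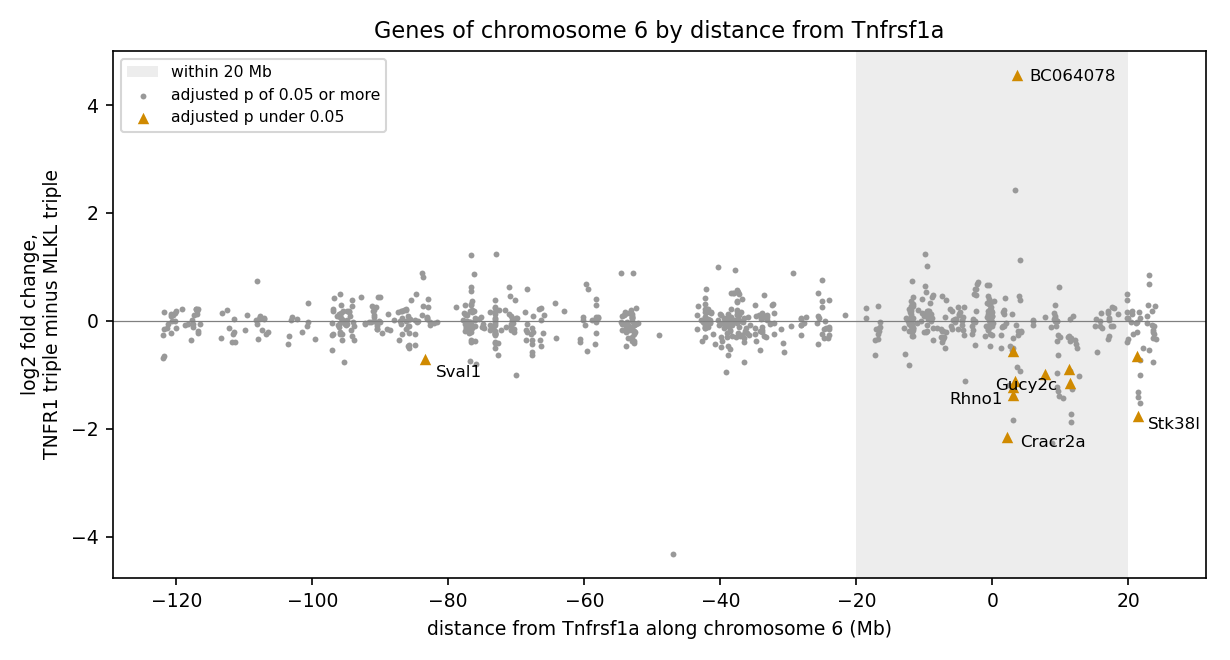
Log2 fold change (TNFR1 triple knockout minus MLKL triple knockout) of each tested gene of chromosome 6 against its distance from Tnfrsf1a in Mb, with the 20 Mb on either side shaded. Of the 12 genes that passed (triangles), 11 lie 2.20 to 21.4 Mb to the right of the gene and Sval1 lies far to its left.

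Rhno1 (chromosome 6, 128357000 to 128362911), a protein of the DNA damage checkpoint, stood at 5.59, 6.57, 4.88, 6.0 and 8.37 CPM in TNFR1 triple knockout mice and at 12.5, 17.7, 14.6, 15.9 and 12.9 CPM in libraries labelled MLKL triple knockout (-1.23 ± 0.166, adjusted p = 1.41e-04). The groups did not overlap. Gm26770 on the opposite strand, whose reads cannot be told apart from those of Rhno1, differed alike (-1.38, adjusted p = 1.41e-04). Stk38l (chromosome 6, 146724995 to 146778812), a kinase of the NDR family, stood at 8.27, 7.74, 18.2, 7.2 and 20.4 CPM against 38.9, 43.5, 48.9, 38.9 and 40.3 CPM (-1.77 ± 0.263, adjusted p = 4.72e-04). Its TNFR1 triple knockout libraries fell into a lower set of 3 (replicates 1, 2 and 4) and a higher set of 2 (replicates 3 and 5). All were below the MLKL triple knockout, WT (30.7 ± 9.54 CPM) and the double knockout (37.1 ± 8.26) except for the lowest WT library, at 14.3 CPM.

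Clec2h (chromosome 6, 128662385 to 128677374), a C-type lectin of the natural killer gene complex that gut epithelium expresses, stood at 122, 97.8, 144, 127 and 162 CPM against 352, 246, 300.2, 283 and 233 CPM (-1.11 ± 0.202, adjusted p = 0.00520). Gucy2c (chromosome 6, 136697284 to 136781765), the receptor of the gut peptides guanylin and uroguanylin, stood at 38.9, 40.3, 61.5, 48.4 and 69.7 CPM against 92.2, 87.8, 122, 99.5 and 81.3 CPM (-0.90 ± 0.188, adjusted p = 0.0220). Neither gene had overlapping groups, and in both the WT mean (149 ± 38.0 and 46.8 ± 15.3 CPM) lay nearer the TNFR1 triple knockout and the double knockout mean (279 ± 37.4 and 87.5 ± 8.28 CPM) nearer the MLKL triple knockout. Cracr2a (chromosome 6, 127561338 to 127674248), a calcium sensor, stood at 0.730, 0.938, 2.66, 2.00 and 10.4 CPM against 17.1, 13.8, 17.8, 15.9 and 10.2 CPM (-2.14 ± 0.464, adjusted p = 0.0314). Only its replicate 5 reached the range of the MLKL triple knockout. The others that passed in this region were Fgfr1op2 (-0.66 ± 0.120, adjusted p = 0.00520), Smim10l1 (-0.99 ± 0.220, adjusted p = 0.0388), Gm44364, opposite the histone gene H2afj (-1.14 ± 0.251, adjusted p = 0.0357), and Fkbp4, a co-chaperone of steroid receptors (-0.56 ± 0.123, adjusted p = 0.0385).

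In all 10 lower genes within 25 Mb of Tnfrsf1a, the double knockout mean lay nearer the MLKL triple knockout, as did the mean of the Casp8 knockout. The WT mean lay nearer the TNFR1 triple knockout in 7 of the 10, and the Xbp1 knockout mean in 5. Calls of BC064078, Rhno1, Gm26770, Stk38l, Clec2h and Fgfr1op2 held without each of the 10 libraries in turn. However, BC064078 did not pass by voom, and Fgfr1op2 passed neither without both libraries that stood apart nor in the fit of only the 10 libraries. Calls of Gucy2c (adjusted p up to 0.112), Cracr2a (up to 0.133), Smim10l1 (up to 0.153), Gm44364 (up to 0.254) and Fkbp4 (up to 0.119) ended without TNFR1 triple knockout replicate 2 or 4, without MLKL triple knockout replicate 3 or 4, and without some of the others. Without both libraries that stood apart 4 genes passed within 20 Mb of Tnfrsf1a, and among females only 7 did.

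The other groups give a scale for the genes that passed elsewhere. Of the 13 higher genes outside the 25 Mb window, the WT mean lay nearer the MLKL triple knockout in 9 and the double knockout mean nearer the TNFR1 triple knockout in 10. Of the 16 lower genes outside it, the WT mean lay nearer the MLKL triple knockout in 15, and the double knockout mean nearer the TNFR1 triple knockout in 9. These counts describe the means and were not tested. Gm1123, for instance, had 13.2 ± 5.03 CPM in TNFR1 triple knockout mice and 11.5 ± 4.58 in the double knockout against 34.8 ± 7.10 in the MLKL triple knockout and 26.3 ± 6.35 in WT (-1.40 ± 0.267, adjusted p = 0.00927). The remaining lower genes were 9030619P08Rik (-1.69 ± 0.311, adjusted p = 0.00528), Gm42615 (-1.03 ± 0.231, adjusted p = 0.0397), whose reads cannot be told apart from those of Ppargc1a on the same strand, Sval1 (-0.70 ± 0.142, adjusted p = 0.0159), the glutamate transporter Slc1a1 (-0.81 ± 0.162, adjusted p = 0.0158), the kinase Cdc42bpg (-0.72 ± 0.145, adjusted p = 0.0158) and protein kinase C alpha, Prkca (-0.46 ± 0.0937, adjusted p = 0.0182). The remaining higher genes were the mitochondrial poly(A) polymerase Mtpap (0.68 ± 0.153, adjusted p = 0.0429) and the membrane raft protein Flot1 (0.52 ± 0.119, adjusted p = 0.0458). Of these 9 genes Gm1123 and 9030619P08Rik kept their call without each library, and the adjusted p of the others rose to between 0.0676 and 0.231 when 1 of the libraries was left out, among them TNFR1 triple knockout replicate 4 for each of the 7.

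The route on which the genotypes differ showed no gene that passed. Of 23 genes of the TNF receptor complex and NF-kB feedback 0 passed in edgeR, DESeq2 or voom, 2 had an unadjusted p under 0.05, and the median was 0.04. Nfkbia, the inhibitor that NF-kB induces, had 309.8 ± 63.3 against 241 ± 38.8 CPM (0.37 ± 0.150, adjusted p = 0.476), and Tnip3, another feedback inhibitor, 66.8 ± 41.2 against 41.3 ± 5.65 CPM (0.69 ± 0.315, adjusted p = 0.542). Of 23 cell death genes beside those targeted 0 passed in edgeR or voom, 4 had an unadjusted p under 0.05, and the median was 0.01. DESeq2 called Gsdmc3. This gene and 2 of its family led the list, the epithelial gasdermin C genes Gsdmc3 (45.7 ± 15.7 against 91.0 ± 32.9 CPM, -0.99 ± 0.255, adjusted p = 0.113), Gsdmc2 (50.6 ± 14.4 against 83.8 ± 31.1 CPM, -0.72 ± 0.239, adjusted p = 0.283) and Gsdmc4. Gsdmc4 stood at 471, 659, 739, 492 and 626 CPM in TNFR1 triple knockout mice and at 786, 782, 1144, 1075 and 1046 CPM in libraries labelled MLKL triple knockout, with no overlap (-0.69 ± 0.235, adjusted p = 0.306). The Gsdmc genes are near-identical copies, between which reads may have been divided, so the share of each is uncertain.

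Inflammatory genes were uneven among the mice of a genotype. Of 25 listed cytokines and chemokines 13 were measured and 0 passed in edgeR, DESeq2 or voom. Of the 13 genes 11 had a positive difference, 5 had an unadjusted p under 0.05, and the median was 0.98. Without both libraries that stood apart the median was 1.25 and Ccl8 passed. The chemokine Ccl6, which passed as lower in the TNFR1 triple knockout, is not in this list. Cxcl5, a neutrophil attractant, stood at 11.9, 7.04, 3.99, 6.60 and 4.98 CPM in TNFR1 triple knockout mice against 0.779, 3.94, 0.730, 3.59 and 4.13 CPM (1.34 ± 0.428, adjusted p = 0.251). The groups met at 3.99 and 4.13 CPM. Tnf itself stood at 10.2, 0.704, 0.222, 5.20 and 0.679 CPM against 0.519, 0.984, 0, 0.674 and 2.18 CPM (1.91 ± 0.927, adjusted p = 0.571), high in TNFR1 triple knockout replicates 1 and 4 and otherwise low in both. The double knockout held 13.6 ± 8.22 CPM of Tnf and WT 0.590 ± 0.666.

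All 10 genes of MHC class II presentation had a positive difference with a median of 0.73 (0.93 without both libraries that stood apart), 6 had an unadjusted p under 0.05, and 0 passed in edgeR, DESeq2 or voom. Cd74, the chaperone of class II molecules, stood at 350.4, 132, 188, 250.1 and 162 CPM against 75.3, 91.1, 42.6, 104 and 192 CPM (1.10 ± 0.366, adjusted p = 0.288). Of the MLKL triple knockout, 4 libraries lay below all of the TNFR1 triple knockout, and the library labelled replicate 5 lay among them. Of 20 measured monocyte and macrophage genes 15 had a positive difference, with a median of 0.23 (0.46 without both libraries, with 18 of 20 positive). Of these 0 passed in the 3 tools and 4 had an unadjusted p under 0.05, and the summed level ran from 554 to 713 CPM in TNFR1 triple knockout mice and from 399.8 to 854 in the MLKL triple knockout. Plasma cell genes (13 of 15 positive, median 0.59), B cell genes (14 of 16, 0.31) and T and NK cell genes (6 of 8, 0.58) also had no member that passed in the 3 tools, with 3, 0 and 0 at an unadjusted p under 0.05. Without both libraries that stood apart, these lists had 10 of 15 (median 0.49), 16 of 16 (0.70) and 6 of 8 (0.55) positive. Their summed levels overlapped, at 2193 to 10034 against 1193 to 5346 CPM for plasma cells, 92.7 to 273 against 38.2 to 291 CPM for B cells and 24.9 to 47.9 against 22 to 39.1 CPM for T and NK cells. Their part in the results above was not tested.

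Interferon response genes were high in a single library of each genotype. The mean of 26 type I interferon response genes on the log2 CPM scale was 5.71, 2.82, 3.01, 3.64 and 3.02 in the TNFR1 triple knockout and 3.64, 3.29, 3.58, 3.26 and 6.79 in the MLKL triple knockout. TNFR1 triple knockout replicate 1 and the library labelled MLKL triple knockout replicate 5 stood apart, and the latter was the higher. All 26 differences were negative with a median of -0.86, 1 had an unadjusted p under 0.05 and 0 passed in edgeR, DESeq2 or voom, and without both libraries the median was -0.20. Ifi27l2a, an interferon-induced gene, stood at 71.5, 16.9, 21.5, 18.4 and 17.6 CPM against 20.5, 16.5, 18.5, 23.4 and 581 CPM (-2.18 ± 0.833, adjusted p = 0.413). Of 20 measured interferon gamma response genes 0 passed in the 3 tools, with 1 at an unadjusted p under 0.05 and a median of 0.17. The same 2 libraries led that list, at 5.12 and 4.64 against 2.62 to 3.31 in the other 8. Of 17 measured antimicrobial and acute-phase genes Reg4 alone passed, and the median was 0.53, and 0.09 without both libraries. Slpi, a protease inhibitor of inflamed epithelium, stood at 429, 28.9, 57.3, 73.8 and 26.9 CPM against 18.4, 13, 21.9, 35.5 and 52.2 CPM (2.12 ± 0.702, adjusted p = 0.283).

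**Figure D5:**
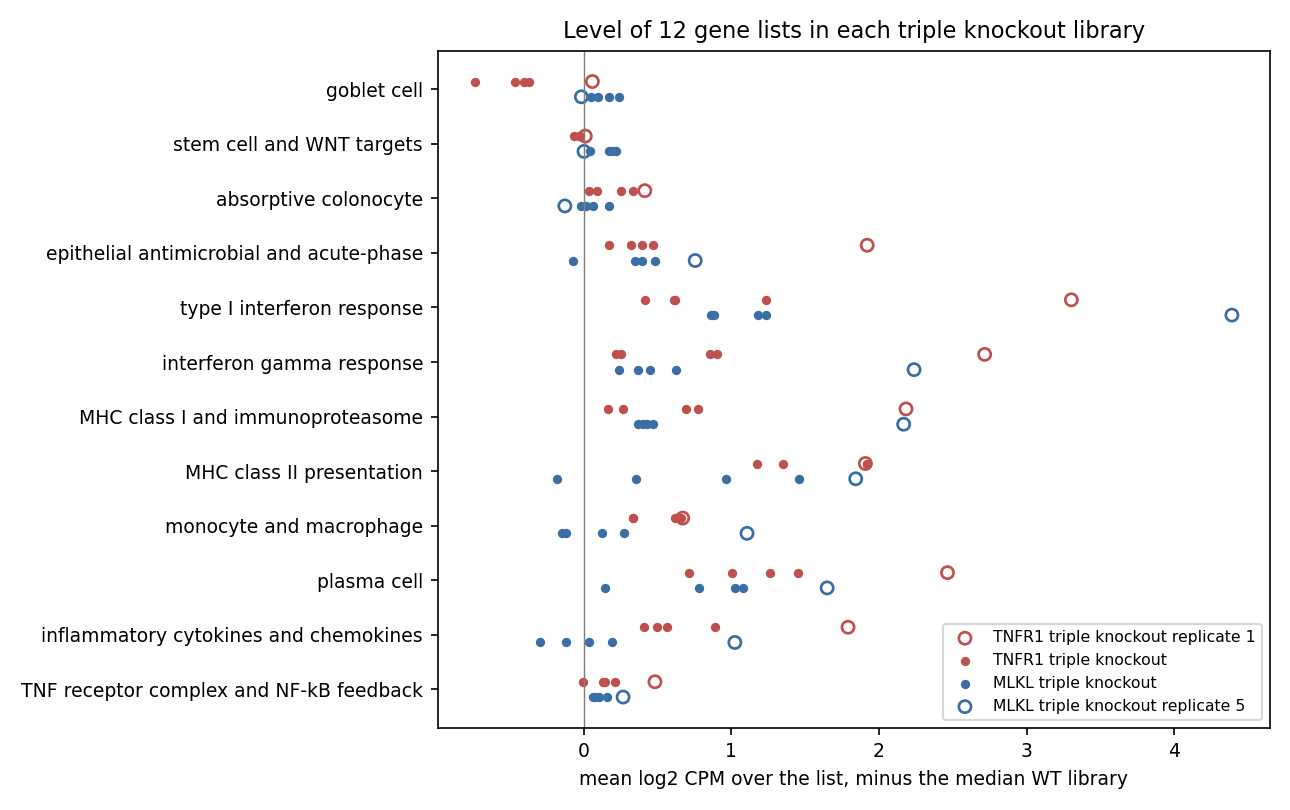
Mean log2 CPM of 12 gene lists in each library of the TNFR1 (red) and the MLKL triple knockout (blue), relative to the median WT library at 0. Open circles are the libraries that stand apart, which lie farthest right for the interferon lists, while in the goblet cell list the 4 other red libraries lie left of all blue ones.

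Absorptive cells, the other main epithelial type of the colon, had no gene that passed. Of 26 absorptive colonocyte genes 16 had a positive difference, 8 had an unadjusted p under 0.05 and the median was 0.20, and DESeq2 alone of the 3 tools called a member, Dhrs9. Dhrs9, a retinol dehydrogenase, stood at 70.3, 8.21, 10.4, 14.2 and 6.34 CPM in TNFR1 triple knockout mice against 4.15, 5.90, 3.65, 6.29 and 3.64 CPM (2.18 ± 0.557, adjusted p = 0.112). The groups did not overlap, at 6.34 and 6.29 CPM, and replicate 1 was far above the rest. Aqp4, a water channel, stood at 350.0, 146, 189, 142 and 211 CPM against 124, 86.8, 123, 77.0 and 73.8 CPM, also with no overlap (1.10 ± 0.325, adjusted p = 0.196). Slc26a3, the chloride and bicarbonate exchanger of the surface, had 1981 ± 393 against 1344 ± 398 CPM (0.56 ± 0.211, adjusted p = 0.403). Hbegf, an EGF receptor ligand of the epithelial regeneration list, stood at 51.6, 52.1, 39.1, 60.4 and 40.5 CPM against 14.3, 29.1, 21.9, 27.4 and 33.2 CPM (0.95 ± 0.225, adjusted p = 0.0696). Its groups did not overlap, and it was the member that DESeq2 called among the 19 measured, of which 0 passed in edgeR or voom, with 5 at an unadjusted p under 0.05 and a median of 0.12.

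The lists of XBP1 targets, ER stress genes and ATF4 response genes held no gene that passed. Of 29 measured XBP1 target secretory genes 0 passed in edgeR, DESeq2 or voom, 3 had an unadjusted p under 0.05, and the differences ran from -0.40 to 0.31 with a median of -0.09. Of 18 ER stress sensors and chaperones 0 passed in the 3 tools, with 3 at an unadjusted p under 0.05 and a median of -0.01, and of 15 measured ATF4 response genes 0 passed in the 3 tools, with 2 at an unadjusted p under 0.05 and a median of 0.15. Ern1, the sensor that splices the Xbp1 transcript, had no overlap between the groups (25.3 against 31.8 CPM, -0.33 ± 0.125, adjusted p = 0.404).

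Markers of the colon's other cell types held no gene that passed. Smooth muscle genes (15, median 0.03), fibroblast and matrix genes (16, median -0.00), endothelial genes (16, median 0.10) and enteric neuron and glia genes (16, median -0.24) had no member that passed in edgeR, DESeq2 or voom. Of these lists 0, 0, 1 and 1 members had an unadjusted p under 0.05. Positive differences numbered 9, 8, 10 and 6. Without both libraries that stood apart the medians were 0.12, 0.16, 0.12 and 0.01, with 15, 13, 13 and 9 positive differences, and 0 members passed in edgeR. The summed level of the smooth muscle genes ran from 6935 to 12800 CPM in TNFR1 triple knockout mice and from 9057 to 10330 in the MLKL triple knockout. Of 17 neutrophil genes 3 were measured, of which 0 passed in the 3 tools and 0 had an unadjusted p under 0.05. S100a8 and S100a9 were near 0 in both genotypes, at means of 1.04 and 1.71 CPM against 0.372 and 0.288. The other, Ly6g, differed by -0.02. It made up most of the summed level of the list, 160 to 288 CPM in TNFR1 triple knockout mice and 209 to 261 in the MLKL triple knockout. Enteroendocrine (14 measured, median -0.19) and tuft cell genes (8 measured, median -0.08) had no member that passed in the 3 tools either, with 2 and 1 at an unadjusted p under 0.05.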

How the data were processed

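Whole colon RNA (2 µg, RIN above 7) was made into 3′ tag libraries, per the labels' protocols. Per the submitters' processing notes, the tools named are cutadapt 3.2, Subread, featureCounts 2.01 and R 4.0.0, with the build GRCm38 (mm10). The table deposited by the authors holds estimated counts per gene, of which 11.2% of the nonzero values are not whole, and these were rounded. The strand setting is not given in the sources used here. A set of 92 spike-in sequences with 0 reads was left out. Symbols and coordinates came from the annotation of the same build, and 260 identifiers had no symbol (0.0190% of reads).

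Groups and replicate numbers came from the labels, with 5 mice per group. Genes were kept by edgeR's expression filter, scaled by TMM and tested with edgeR 4.0.16 (quasi-likelihood test, R 4.3.3) in 1 fit of all 30 libraries, whose groups share the estimate of spread. Adjusted p-values are Benjamini-Hochberg over all 15458 genes, and a gene passed at 0.05. The SE is the absolute log2 fold change divided by the square root of the test's F statistic, and is approximate, above all for genes with few reads. One read was worth a median of 0.232 CPM, and intervals of read ratios cover counting error only. Alternatives used DESeq2 1.42.0, limma 3.58.1 (voom), other scalings and filters, sex as a term and libraries left out. In simulated data for this contrast, with 15245 genes, the test found 66.3% of 2-fold and 93.9% of 4-fold changes. The simulated counts were drawn independently for each gene, with no library that stood apart, so these shares may not hold for the real libraries.

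Genes were named by rule: the targeted genes, the 12 of smallest p in each direction, taking log2 changes of at least 1 first, up to 3 members of each list and up to 6 genes near each targeted locus. Muc2, Zg16, Fcgbp, Atoh1, Spdef, Slc26a3, Mt1, Tnf and the genes that passed but fell outside the rule (among them Gcnt3, Cacna1h, Prkca, Fkbp4 and Flot1) were named after their values were seen. The comparison, the rule and the gene lists were chosen with earlier results of these data known.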

Additional observations from a re-analysis of the deposited data

Results flagged for a closer look

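In each group of 5 libraries the highest and the lowest value were compared with the rest by Dixon's criterion for a single far value. Of 154 groups checked 17 held such a value (11%), where chance gives about 5%. Most of them belong to TNFR1 triple knockout replicate 1 or the library labelled MLKL triple knockout replicate 5.

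Among single genes, Cracr2a stood at 10.4 CPM in TNFR1 triple knockout replicate 5 against a group median of 2.00, and Nqo1 at 13.1 CPM in replicate 2 against 19.5. In TNFR1 triple knockout replicate 1, Xbp1 stood at 109 CPM against a median of 53.6 and Mlkl at 30.2 CPM against 11.1.

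The other values are means of gene lists on the log2 CPM scale. In TNFR1 triple knockout replicate 1 the type I interferon response stood at 5.71 (group median 3.02), the interferon gamma response at 5.12 (3.26), antimicrobial and acute-phase genes at 6.17 (4.64), ER stress sensors and chaperones at 6.42 (6.04), regeneration genes at 5.51 (4.92), endothelial genes at 3.59 (3.83) and enteric neuron and glia genes at 2.34 (3.15). In the library labelled MLKL triple knockout replicate 5 the type I interferon response stood at 6.79 (3.58), the interferon gamma response at 4.64 (2.85), MHC class I genes at 6.76 (5.02) and xenobiotic metabolism genes at 4.78 (5.10). Regeneration genes stood at 4.33 in MLKL triple knockout replicate 1 (4.89), and mitochondrially encoded genes at 11.6 in replicate 3 (12).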

How the results depend on the processing

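The 40 genes that passed (14 higher, 26 lower) became 86 with DESeq2 (37 and 49), 72 with no low-count filter (33 and 39), 19 with only the 10 triple knockout libraries in the fit (7 and 12) and 26 when genes up to 20 Mb from a targeted locus were left out (9 and 17). All 40 were among the 86 and 37 among the 72. The cause of these shifts was not tested, except that the last leaves out genes. Leaving out 1 library gave 20 to 54 genes, 8 to 22 higher and 12 to 32 lower. The counts moved by over 1.5 times without TNFR1 triple knockout replicate 4 (20), MLKL triple knockout replicate 3 (21) or replicate 4 (25), and for the higher genes without the library labelled MLKL triple knockout replicate 5 (22). DESeq2 size factors, the stricter filter, voom, sex as a term, females only and leaving out both libraries that stood apart gave 35 to 47 genes. Of the 40 genes, 19 passed without each library in turn and 13 in every setting that could be run. The direction of Casp8 alone turned among the genes that passed and the targeted genes, to -0.000853 without TNFR1 triple knockout replicate 1, in a range up to 0.41 over the libraries left out in turn.

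With the replicate number as a block 42 genes passed (12 higher, 30 lower). Correlations of the deviations of same-numbered libraries were -0.095, 0.045, 0.125, -0.058 and -0.175, and those of differently numbered libraries ran from -0.146 to 0.239. These values show no sign that the numbers pair the mice, but cannot exclude it.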

Other observations

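NRF2 is the transcription factor of the cell's defence against oxidants, and a list of 29 of its targets was written after Pir and Nqo1 were seen to pass, so its counts are a description with no test. Of 27 measured members these 2 passed, 21 differences were positive, 11 had an unadjusted p under 0.05, and the median was 0.15 against -0.00 over all genes. The mean of the list on the log2 CPM scale was 5.63, 5.41, 5.76, 5.67 and 5.63 in TNFR1 triple knockout replicates 1 to 5 and 5.24, 5.49, 5.4, 5.37 and 5.26 in the libraries labelled MLKL triple knockout. Replicate 2 of each genotype was where the groups overlapped. Gsta3, a glutathione transferase, differed by 0.73 ± 0.188 (SE; edgeR, adjusted p = 0.114), and Gclm and Gclc, the subunits of the enzyme that starts glutathione synthesis, by 0.48 (adjusted p = 0.117) and 0.53 (adjusted p = 0.14). DESeq2 called Gsta3, Gsta4 and Gclm beside Pir and Nqo1, and voom called Pir alone.

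Cholesterol synthesis genes had a negative difference in 15 of 19 measured members with a median of -0.22, and 0 passed in edgeR, DESeq2 or voom, with 2 at an unadjusted p under 0.05. Enteroendocrine genes had a summed level of 347 to 427 CPM in the TNFR1 triple knockout and of 436 to 482 CPM in the MLKL triple knockout, with no overlap. Their mean on the log2 CPM scale did overlap, at 3.59 to 3.95 against 3.80 to 4.04. The median difference was -0.19, and -0.09 without both libraries that stood apart.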
